A study of Rattus norvegicus with 20 samples.

Results

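The glucocorticoid receptors and their response genes were followed in the hypothalamic arcuate nucleus of female Sprague-Dawley rats, in a model of infantile spasms. The set held 10 genes: the receptors Nr3c1 and Nr3c2, the enzyme Hsd11b1, and Fkbp5, Sgk1, Tsc22d3, Per1, Zbtb16, Cdkn1a and Ddit4, which glucocorticoids are known to regulate in many tissues. Each was found through the gene name, current or older, that the array design gives to its probes. All 10 passed the filter on low values, out of 17086 genes that passed it and 25926 on the array. Of their 14 probes, 13 passed. The genes were chosen because a list of glucocorticoid genes had been higher with spasms in earlier results from the same samples, so their differences between rats with and without spasms are given as a description, without a test.

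The 5 conditions compared held 4 rats each, all taken on postnatal day 15 (P15). The mothers of SNS rats received saline on gestational day 15, and these pups had no spasms and saline as the postnatal treatment. The mothers of all other rats received betamethasone, a synthetic glucocorticoid, in 2 injections of 0.4 mg/kg on that day. BNS rats had this prenatal exposure, no spasms and saline. BYS, BYA and BYP rats had the same exposure and spasms, triggered on P12, P13 and P15 with the glutamate receptor agonist NMDA, and were treated with saline (BYS), ACTH (BYA) or PMX53 (BYP). ACTH is the pituitary hormone that drives the adrenal cortex to make corticosterone, and PMX53 blocks C5ar1, the receptor of the complement peptide C5a. The labels put the treatments on days 13, 14 and 15, whereas the methods of the study start them on the day of the first trigger. Neither gives the time between the last NMDA dose and the tissue collection or the litter of each rat, so p-values measure the spread between these 20 samples.

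Corticosterone, the main glucocorticoid of the rat, acts through a pair of receptors that also work as transcription factors. Without hormone they are held in the cytoplasm by chaperones such as Hsp90, and with hormone they move to the nucleus, where the glucocorticoid receptor binds palindromic response elements near its targets. Fkbp5, one of these targets, encodes a co-chaperone that lowers the receptor's affinity for hormone and so closes a short feedback loop. In the arcuate nucleus, whose Agrp and Pomc neurons control feeding, glucocorticoids are known to act on the neurons that regulate energy balance.

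Promoter windows of 250 bases before the annotated transcription start were available for 7 of the members, with 12 starts (RefSeq, GRCr8). They were scanned on both strands for the glucocorticoid response element as the palindrome GNACANNNTGTNC, for its strict form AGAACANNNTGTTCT, for the half-site AGAACA that the strict form contains, for the half-site of the p53 response element, and for the CCAAT and TATAAA boxes. None of the 12 windows held any of the 3 glucocorticoid motifs, which occurred in 0.373%, 0.012% and 17.5% of all 33469 windows of this length. Response elements of many glucocorticoid targets lie outside such short windows, and an absent match says only that these letters were not in this window. The p53 half-site was in 1 window, that of Cdkn1a, against 6.64% of all windows. CCAAT occurred in windows of 3 members (34% of all windows) and TATAAA in windows of 2 members (12.9%).

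The 3 windows below are written 5′ to 3′ on the strand of the gene: those of Fkbp5 and Cdkn1a, the members that stood furthest from BNS in the rats with spasms, and the third start of Tsc22d3, the member that differed most between samples. Capitals mark CCAAT in Fkbp5 (chr20:6543556-6543805, minus strand), the p53 half-site in Cdkn1a (chr20:7150682-7150931, plus strand, 201 to 192 bases before the start), and in Tsc22d3 (chrX:109010035-109010284, minus strand) a run with CCAAT on both strands, overlapping, and TATAAA.
Fkbp5: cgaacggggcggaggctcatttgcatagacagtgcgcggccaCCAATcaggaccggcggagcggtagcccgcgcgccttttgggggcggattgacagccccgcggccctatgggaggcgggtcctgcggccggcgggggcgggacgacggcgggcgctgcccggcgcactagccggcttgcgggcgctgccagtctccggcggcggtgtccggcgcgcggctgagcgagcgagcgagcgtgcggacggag
Cdkn1a: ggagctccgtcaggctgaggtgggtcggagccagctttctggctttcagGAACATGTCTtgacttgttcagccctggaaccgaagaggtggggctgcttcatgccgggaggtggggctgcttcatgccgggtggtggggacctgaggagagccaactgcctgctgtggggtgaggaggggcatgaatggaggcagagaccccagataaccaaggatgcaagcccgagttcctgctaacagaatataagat
Tsc22d3: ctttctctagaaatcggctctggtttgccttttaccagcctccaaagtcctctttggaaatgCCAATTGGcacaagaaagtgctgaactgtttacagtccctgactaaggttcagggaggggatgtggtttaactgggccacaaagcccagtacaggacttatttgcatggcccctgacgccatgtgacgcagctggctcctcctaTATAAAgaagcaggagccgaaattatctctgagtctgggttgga

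RNA of 2 rats of the same condition, 1 labelled with Cy3 and 1 with Cy5, shared each of 9 arrays: replicates 1 and 2 on one, and in all conditions but BYA replicates 3 and 4 on another. BYA replicates 3 and 4 each shared an array with a rat that belongs to a different series. The name of that rat in the label follows those of the SNS rats with M in place of F, which would make it a male SNS rat. For BYA replicate 3 the labelled dye and the naming of its array point to different channels, so which of the 2 rats its values come from is not certain, and it may be the other one. The BYA differences are therefore also given without it, as plain differences of means unless called fitted. The arrays of a condition shared 1 slide, which held none of another condition, and only BYA replicate 3 was on a different slide from the rest of its condition, so slide and condition cannot be told apart. The median signal was 6.94 times the local background in SNS, 16.0 in BNS, 16.0 in BYS, 7.43 in BYA and 9.06 in BYP. All 12 marker genes of arcuate neurons, Agrp, Npy and Pomc among them, passed the filter. So did all 6 listed markers of the thalamus, all 4 of the ventromedial hypothalamus and the 2 of magnocellular neurons. Passing the filter thus does not single out the arcuate nucleus. Of 8 pituitary markers, 2 passed (the hormone genes Lhb and Cga), whereas Gh1, Prl, Tshb and Fshb did not. Levels are log2 intensities after background correction and quantile normalization, so that 1 unit is a 2-fold difference, and they are compared between samples and never between genes. Tissue pieces were measured whole, and fewer cells of a type cannot be told apart from less RNA per cell.

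The glucocorticoid receptor Nr3c1 was lower in SNS than in every rat of BNS. In the order of replicates 1 to 4, its log2 level was 8.06, 8.23, 8.11 and 8.19 in SNS and 8.44, 8.52, 8.48 and 8.53 in BNS. The values were 8.31, 8.48, 8.44 and 8.26 in BYS, 8.36, 8.54, 8.29 and 8.35 in BYA and 8.28, 8.22, 8.52 and 8.50 in BYP. In this level the spasm conditions lay between the others: 11 of the 12 rats with spasms were above the highest SNS rat, and 8 of 12 were below the lowest BNS rat. Against BNS the fitted log2 differences were -0.12, -0.12 and -0.11 for BYS, BYA and BYP. The level of Nr3c1 is the mean of 2 probes, of which the brighter was well above background in 19 samples and the dimmer in 7, with no SNS and no BYA sample among these. The dimmer passed the filter through BYS alone. At the brighter probe the lowest rats of BYS (8.85), BYA (8.88) and BYP (8.88) were below the highest SNS rat (9.01). Each spasm condition thus overlapped SNS there. The count of rats above SNS holds for the averaged level only, and nothing is read from it. By itself the brighter probe differed from BNS by -0.27, -0.19 and -0.24 in BYS, BYA and BYP. The dimmer differed by 0.03, -0.04 and 0.02, so the averaged differences from BNS came mostly from the brighter.

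The mineralocorticoid receptor Nr3c2 has the higher affinity for corticosterone and responds already to its resting levels. The log2 level of Nr3c2 was 9.05, 8.97, 9.17 and 9.09 in SNS, 9.10, 9.02, 8.84 and 9.21 in BNS, and 8.69, 9.08, 8.74 and 8.59 in BYS. BYA rats had 8.54, 9.13, 9.16 and 9.11, and BYP rats had 8.70, 8.84, 6.95 and 8.47. All 4 BYP rats were below all SNS rats, whereas BYP and BNS overlapped, and BYP replicate 3 was the lowest of the 20 samples by a wide margin. The mean of the 2 BYP rats on the first array was 1.06 above that of the 2 on the other, a gap larger than that of 98.9% of genes. The differences from BNS were -0.27, -0.03 and -0.80 for BYS, BYA and BYP. This probe was well above background in 18 samples, among them 3 of 4 in BYA and 3 of 4 in BYP, and in BYP replicate 3 its signal was 102 units over a local background of 45. The second probe of Nr3c2 was not well above background in any sample and is not part of these values.

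Hsd11b1, the enzyme that regenerates active glucocorticoid from its inactive form inside cells, varied within conditions as much as between them. Levels of 9.92, 10.28, 10.30 and 10.46 were measured in SNS, 10.27, 10.64, 9.84 and 10.46 in BNS, and 9.63, 10.47, 10.01 and 10.21 in BYS. BYA gave 9.92, 10.22, 9.89 and 9.996, and BYP gave 9.68, 9.79, 9.91 and 10.37. The order of means was BYP, BYA, BYS, SNS and BNS from low to high, and every neighbouring pair in it overlapped. The fitted differences from BNS were -0.22, -0.30 and -0.36 in BYS, BYA and BYP.

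**Figure D1:**
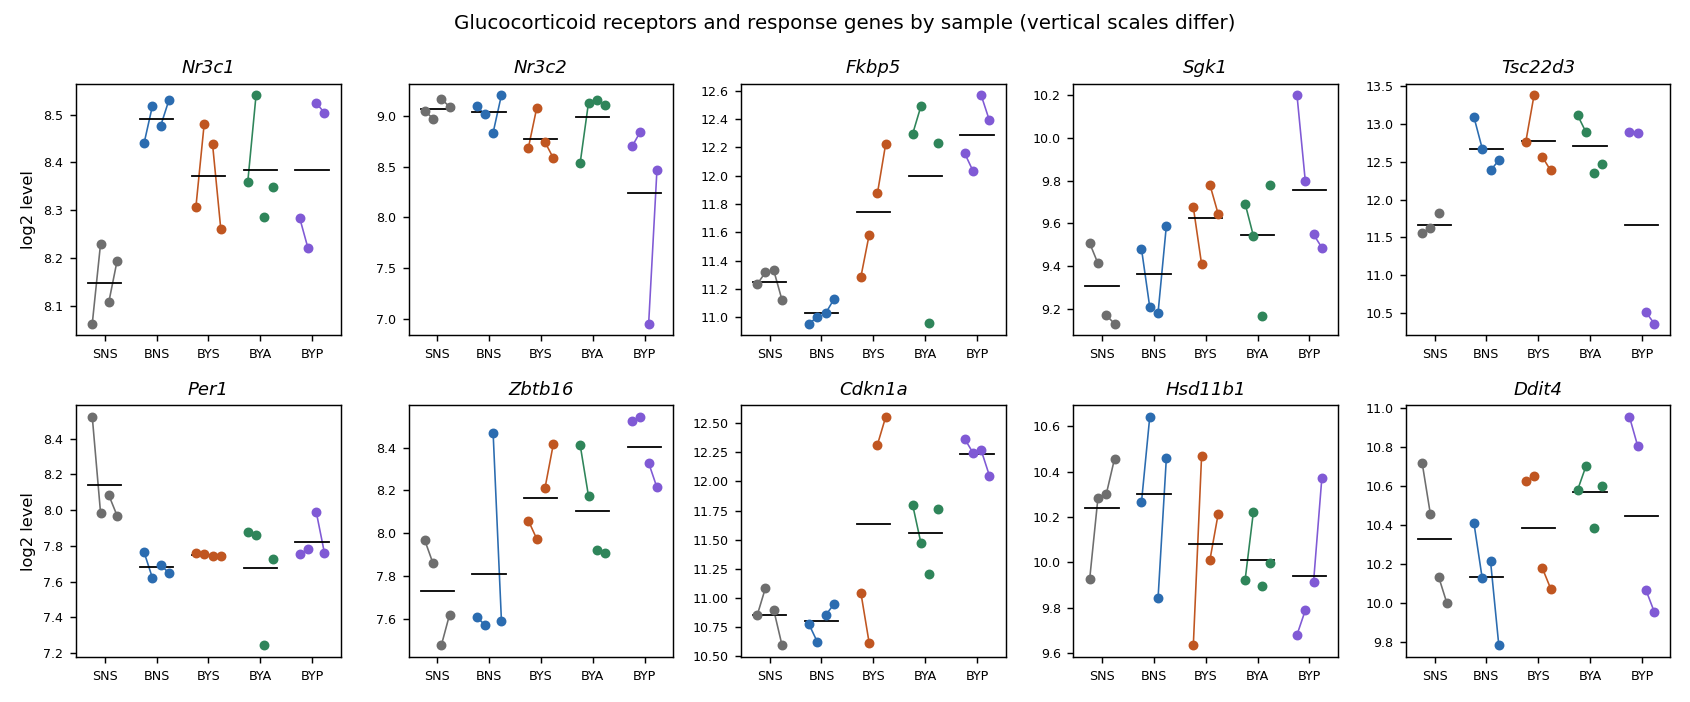
Log2 level of each of the 10 genes in each of the 20 rats, by condition on the horizontal axis. Points stand for single rats in the order of replicates 1 to 4, coloured lines join the 2 rats of a condition that shared an array, black bars mark the condition means, and the vertical scale differs between panels; Fkbp5 is lowest in BNS and BYA replicate 3, Cdkn1a is high in 2 of the 4 BYS rats and in all 4 BYP rats, and Tsc22d3 splits into a high and a low pair in BYP.

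Fkbp5 was higher than in BNS in 11 of the 12 rats with spasms. It was read by a probe at chr20:6637600-6637659 on the minus strand (rn4, the build of the array design). Fkbp5 had log2 levels of 11.23, 11.32, 11.33 and 11.12 in SNS and of 10.95, 11.001, 11.03 and 11.13 in BNS. In the rats with spasms they were 11.28, 11.58, 11.88 and 12.23 in BYS, 12.30, 12.49, 10.96 and 12.23 in BYA, and 12.16, 12.04, 12.57 and 12.39 in BYP. The exception was BYA replicate 3, the sample of uncertain channel, which lay among the BNS rats. The means were 11.03 ± 0.07 in BNS (SD, n = 4 here and for the next 4), 11.25 ± 0.10 in SNS, 11.74 ± 0.40 in BYS, 12.00 ± 0.70 in BYA and 12.29 ± 0.24 in BYP, and each neighbouring pair in this order overlapped. Against BNS the fitted log2 differences were 0.72 in BYS, 0.91 in BYA and 1.26 in BYP, or 1.64-fold, 1.88-fold and 2.40-fold. Among all genes Fkbp5 was at the 99.5th, 99.6th and 99.7th percentiles of these differences. The first BYS array was 0.41 above BNS and the second 1.02. Without replicate 3, BYA had a mean of 12.34 ± 0.14 (SD, n = 3), 1.31 above BNS.

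Cdkn1a, which encodes the cell-cycle inhibitor p21 and is also a target of p53, was higher than in BNS in all BYP and BYA rats and in 3 of the 4 BYS rats. Measured at a probe at chr20:7386596-7386655 on the plus strand (rn4), its log2 level was 10.85, 11.09, 10.90 and 10.59 in SNS and 10.77, 10.62, 10.85 and 10.95 in BNS. The 2 BYS rats of the first array had 11.05 and 10.62, and those of the second 12.31 and 12.55. Levels in BYA were 11.80, 11.47, 11.21 and 11.76, and in BYP 12.37, 12.25, 12.27 and 12.05. The BYS condition thus spanned nearly the whole range of the gene: its first array differed from the mean of BNS by 0.03, and its second by 1.64. That gap between the BYS arrays was larger than the gap of 99.7% of genes. Against BNS the fitted differences were 0.83 in BYS, 0.75 in BYA and 1.43 in BYP (1.78-fold, 1.68-fold and 2.70-fold). Without replicate 3 the mean of BYA at this probe was 0.88 above that of BNS.

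A second probe of Cdkn1a, at chr20:7385536-7385595 (rn4), gave another order of conditions. There, 12.45, 12.92, 14.03 and 13.63 were measured in BNS and 14.54, 14.49, 14.35 and 14.10 in SNS, and the 11 values with spasms ran from 13.51 to 14.52. In BYS they were 14.19, 13.51, 13.78 and 14.50, without the split by array of the first probe. Against BNS the second probe was higher by 0.74 in BYS, 1.11 in BYA and 0.98 in BYP, but against SNS it differed by -0.38, -0.0054 and -0.13, where the first probe was higher by 0.78, 0.69 and 1.38. The probe was missing in BYA replicate 3 as an outlier spot and was therefore left out of the level of the gene. The local background of this probe was 1111 and 315 intensity units in BNS replicates 1 and 2, where its level was lowest, and 77 or less in the other samples. At the first probe the background was 36 and 32 in the same rats. The part of the local background in the low values was not tested.

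**Figure D2:**
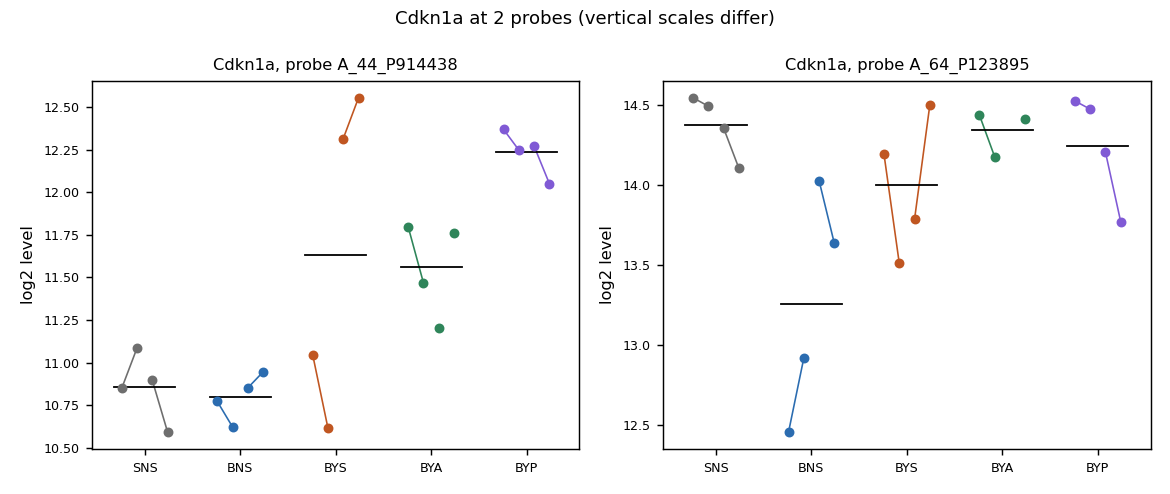
Log2 level of Cdkn1a at its 2 probes in each rat, by condition, with points, lines and bars as in the plot of all members and a vertical scale of its own for each probe. At the first probe BYP lies above SNS and BNS without overlap, and at the second SNS, BYA and BYP share a range and the first BNS array is lowest.

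Sgk1 encodes a kinase that regulates ion channels and transporters and is induced by both receptors. The log2 level of Sgk1 was 9.51, 9.41, 9.17 and 9.13 in SNS, 9.48, 9.21, 9.18 and 9.59 in BNS, and 9.68, 9.41, 9.78 and 9.64 in BYS. The BYA rats were at 9.69, 9.54, 9.17 and 9.78, and the BYP rats at 10.20, 9.80, 9.55 and 9.49. Every pair of neighbours in the order SNS, BNS, BYA, BYS and BYP overlapped, and 7 of the 12 rats with spasms were above the highest BNS rat. The differences from BNS were 0.26, 0.17 and 0.39 in BYS, BYA and BYP.

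Zbtb16, a transcription factor of the BTB zinc finger family, was dim on the array and well above background in 15 of the 20 samples. Its probe passed the filter through BYS and BYP, with 4 of 4 rats each, where SNS and BYA had 2 and BNS had 3. Zbtb16 measured 7.97, 7.86, 7.48 and 7.62 in SNS, 7.61, 7.57, 8.47 and 7.59 in BNS, and 8.06, 7.97, 8.21 and 8.41 in BYS. The values were 8.41, 8.17, 7.92 and 7.91 in BYA and 8.52, 8.54, 8.33 and 8.21 in BYP. The third BNS rat alone made BNS overlap with each spasm condition, and at this spot the local background was 157 units, against 90 or less in the other samples. All 12 rats with spasms were above the other 3 BNS rats. Nothing is read from this, since BYS and BYP carried the probe past the filter. With replicate 3 included, the differences from BNS were 0.35, 0.26 and 0.59 for BYS, BYA and BYP. The BYS value was 0.09 when the channels were scaled by their medians in place of quantiles, which put the median of all genes at 0.15.

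Tsc22d3, known as GILZ, encodes a leucine zipper protein through which glucocorticoids restrain inflammation. Its probe lies at chrX:128336564-128336623 on the minus strand (rn4). It gave log2 levels of 11.56, 11.63 and 11.82 in the SNS rats with a value, replicate 4 being an outlier spot, and 13.10, 12.68, 12.39 and 12.52 in BNS. It was 12.77, 13.39, 12.57 and 12.39 in BYS and 13.12, 12.90, 12.35 and 12.48 in BYA. In BYP the first array gave 12.90 and 12.89 and the second 10.51 and 10.36. The 3 SNS rats were below all rats of BNS, BYS and BYA, and the BYP pairs lay 2.46 apart, a gap larger than that of 99.8% of genes. The first BYP array was 0.22 above BNS and the difference of the second was -2.24, so that the mean BYP difference of -1.01 describes neither pair.

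Per1, a clock gene that glucocorticoids induce rapidly in many tissues, was highest in SNS. The log2 level of Per1 was 8.52, 7.99, 8.08 and 7.97 in SNS and 7.76, 7.62, 7.70 and 7.65 in BNS. Rats with spasms had 7.76, 7.76, 7.75 and 7.74 in BYS, 7.88, 7.86, 7.24 and 7.73 in BYA, and 7.75, 7.78, 7.99 and 7.76 in BYP. Of the 12 rats with spasms, 11 were below the lowest SNS rat, and the differences from BNS were 0.07, -0.03 and 0.14. The probe was dim, well above background in 12 of 20 samples and in 2 of 4 in SNS, BNS, BYA and BYP, so these levels lie close to the limit of the array. It passed the filter through BYS alone, with 4 of 4 rats. Under median scaling of the channels the BYS difference turned to -0.53, or -0.68 relative to the median of all genes.

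Ddit4, an inhibitor of the growth-promoting kinase complex mTORC1, was measured with 2 probes that were well above background in all 20 samples. Its log2 level was 10.72, 10.46, 10.13 and 9.999 in SNS, 10.41, 10.13, 10.22 and 9.78 in BNS, and 10.63, 10.65, 10.18 and 10.07 in BYS. In BYA it was 10.58, 10.6996, 10.39 and 10.60, and in BYP 10.95, 10.80, 10.07 and 9.95. Within SNS, BYS and BYP the rats of the first array were above those of the second, by 0.52, 0.51 and 0.87, and these gaps exceeded the differences of 0.25, 0.42 and 0.31 between BNS and the BYS, BYA and BYP means. By themselves the 2 probes differed between BYA and BNS by 0.65 and 0.19. At the probe with 0.19, BYA replicates 1, 2 and 4 overlapped BNS.

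Counted over the set, 7 of the 10 members were higher than BNS in BYS, 5 in BYA and 6 in BYP, against 50.3%, 49.5% and 50.9% of all genes. The median member difference was 0.18, 0.08 and 0.22, beside medians of 0.00092, -0.0019 and 0.0042 over all genes. In BYS, 1 member (Fkbp5) lay above BNS without overlap, and 2.56% of all genes did so. In BYA it was also 1 member (Cdkn1a), beside 4.64% of genes, and without replicate 3 it was 3 members (Fkbp5, Cdkn1a and Ddit4), beside 8.51%. In BYP it was Fkbp5 and Cdkn1a, beside 6.28%. No member lay below BNS without overlap, beside 3.87%, 4.01% and 6.97% of genes in BYS, BYA and BYP. Without replicate 3, 7 members were higher in BYA, with a median of 0.23 (-0.0033 over all genes), and the differences were -0.07 for Nr3c1, -0.11 for Nr3c2, -0.25 for Hsd11b1, 0.30 for Sgk1, 0.35 for Zbtb16 and 0.49 for Ddit4. Those of Per1 (0.14) and Tsc22d3 (0.16) had the opposite sign to the values with it (-0.03 and -0.0071). Under median scaling of the channels Fkbp5 and Cdkn1a lay 1.03 to 1.27 above BNS in the 3 spasm conditions, where the median of all genes lay 0.15 above BNS in BYS, 0.11 in BYA and 0.03 in BYP. Relative to these medians the sign turned for Per1 (-0.68) and Zbtb16 (-0.05) in BYS, for Tsc22d3 in BYA (0.20) and for Nr3c1 in BYP (0.07). These contrasts include the one that chose the set, so the counts describe its make-up and nothing is read from them against the background.

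Against SNS, the condition without betamethasone, the members that lay apart were partly others. Nr3c1 and Zbtb16 were above SNS without overlap in BYS, Nr3c1 and Cdkn1a in BYA, and Fkbp5, Zbtb16 and Cdkn1a in BYP. Zbtb16 passed the filter through BYS and BYP alone, so nothing is read from its place above SNS there. The level of Nr3c1 includes a dim probe that passed through BYS alone. At its brighter probe the lowest BYS (8.85) and BYA (8.88) rats were below the highest SNS rat (9.01). Nothing is therefore read from the place of Nr3c1 above SNS in these conditions either. Tsc22d3, with 1 SNS value missing, is not counted here: all BYS and BYA rats were above its 3 measured SNS rats, by 1.09 and 0.98 in the fit, and BYP differed by -0.02. The background shares were 13.4%, 13.7% and 13.2% of all genes. Without BYA replicate 3, the BYA rats lay above SNS in Nr3c1, Fkbp5, Sgk1 and Cdkn1a, beside 16.6% of genes, and Per1 was below SNS, beside 17.3%. Per1 was below SNS without overlap in BYS and in BYA, and Nr3c2 in BYP, beside 13.8%, 13% and 13.4% of genes. Fkbp5 in BYP was 1.04 above SNS and Cdkn1a 1.38 above it, and both had somewhat smaller differences there than against BNS. These places of Cdkn1a are those of its first probe. At the second probe, BYA and BYP differed from SNS by -0.0054 and -0.13.

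**Figure D3:**
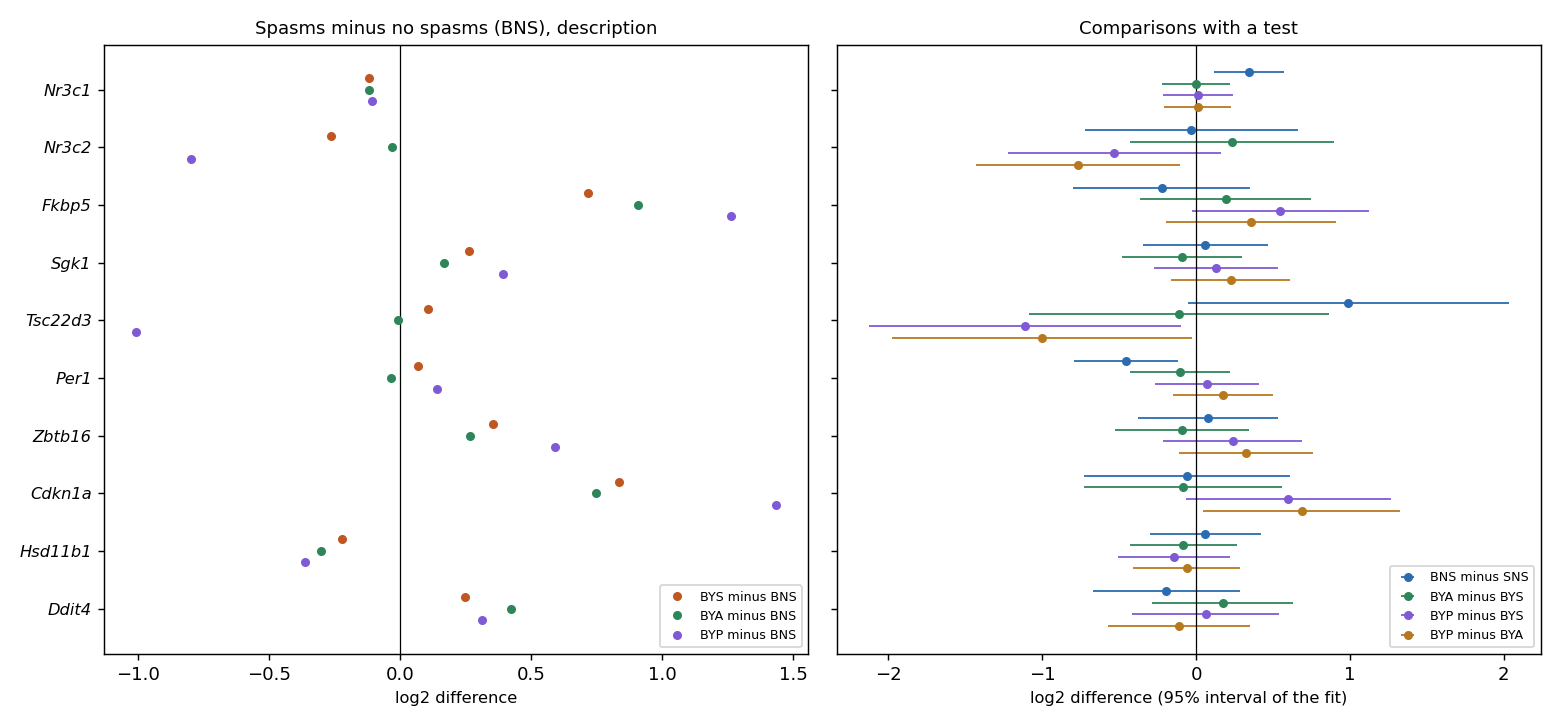
Log2 difference of each member between conditions. The left panel gives spasms minus BNS as points without error, since the members were chosen on such a contrast, and the right panel gives the comparisons with a test, with 95% intervals of the limma fit; Fkbp5 and Cdkn1a lie furthest right on the left, and most intervals on the right include 0.

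Prenatal betamethasone was compared with saline in rats without spasms (BNS against SNS). This contrast shares its BNS rats with the one that chose the members. Nr3c1 rose by 0.34 (SE 0.11), or 1.27-fold, with no overlap between the conditions (limma, Benjamini-Hochberg adjusted p = 0.041 over all genes), and no other member passed the threshold of 0.05. The call was lost with each channel scaled to its median (0.46; limma, adjusted p = 0.27) and with the processed intensities (0.27; limma, adjusted p = 0.67). Cdkn1a differed by -0.06 at the probe used for its level, and by -1.11 (SE 0.32; limma, adjusted p = 0.028 with each probe tested by itself) at its second probe, the one with the high local background in BNS. With Nr3c1, 1 of 10 members passed at the gene level, where 15.2% of all genes passed and 9.89% did so as higher. The brighter probe of Nr3c1 gave 0.49 and the dimmer 0.19, with adjusted p-values of 0.047 and 0.31 when each probe was tested by itself. Per1 differed by -0.46 (SE 0.16; limma, adjusted p = 0.063), also without overlap, and did not pass. Differences of this kind were common, since 15.3% of genes lay higher and 17.1% lower in BNS without overlap. Under median scaling of the channels the Per1 difference was -0.26, where the median of all genes was -0.14. The dim Per1 probe was well above background in 2 of 4 rats in SNS and 2 of 4 in BNS. The other 8 members ranged from -0.22 (Fkbp5) to 0.99 (Tsc22d3), the latter with a 95% interval from -0.05 to 2.03.

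Marker levels of other cell types are given beside this comparison. The 5 choroid plexus markers that passed the filter, Ttr among them, had a mean log2 level of 9.47 to 9.67 in SNS and of 8.95 to 9.26 in BNS. The other 3 of that list (Kl, Clic6 and Sostdc1) did not pass. None of the 5 passed the test, and Aqp1, the sole marker of this list without overlap, was at 0.22, higher in BNS. Of red blood cell markers 4 of 4 were higher, with a median of 0.51, and 1 passed (Alas2, 0.99; limma, adjusted p = 0.0496). Of 8 endothelial markers 2 were higher and 1 passed (Kdr, 0.52; limma, adjusted p = 0.043), and of 8 astrocyte markers 2 were higher and 1 passed (Gja1, 0.45; limma, adjusted p = 0.027). Of 10 oligodendrocyte markers 8 were lower, with a median of -0.35, and none passed. The signal over background was lower in SNS than in BNS, as given above, and the slides differed. With any one of the 20 rats left out, Nr3c1 stayed 0.32 to 0.36 higher in BNS, with an adjusted p of 0.035 to 0.078 (limma). It missed the threshold without any one of the 4 BNS rats, of SNS replicates 1 and 3, BYS 1 and 3, BYA 2, or BYP 1 and 4. The part of tissue, signal and slide in the Nr3c1 difference was not tested.

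The treatments were compared with saline in rats with spasms. No member passed the threshold in BYA against BYS, nor did any of the 17086 genes (0%), and 742 of them (4.34%) reached 0.05 unadjusted. The member differences ran from -0.11 (Tsc22d3) to 0.23 (Nr3c2), with 4 of 10 higher in BYA, and none reached 0.05 unadjusted. Without BYA replicate 3, 8 of 10 were higher, from -0.03 (Hsd11b1) to 0.60 (Fkbp5), and the signs turned for Sgk1 (0.04), Per1 (0.07), Tsc22d3 (0.05) and Cdkn1a (0.04). For Fkbp5 the difference was 0.19 with a 95% interval from -0.36 to 0.75, and for Cdkn1a it was -0.09 with an interval from -0.73 to 0.56. Without BYA replicate 3 the 3 remaining BYA rats were above all BYS rats for Fkbp5, beside 4.79% of genes, with 12.23 in both the lowest BYA and the highest BYS rat, and the fitted difference was 0.58 (limma, adjusted p = 0.59).

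In BYP against BYS, again no member passed, and 1 gene did among all tested (0.00585%), where 3.88% reached 0.05 unadjusted. The difference of Tsc22d3 was -1.11 (SE 0.48; limma, adjusted p = 1.00), and this rested on the second BYP array alone: the 2 rats of the first array were 0.12 above BYS. The other 9 members ranged from -0.53 (Nr3c2) to 0.60 (Cdkn1a). Fkbp5 differed by 0.55, with a 95% interval from -0.03 to 1.12, and by -0.01 under median scaling of the channels, where the median of all genes was -0.17. Both treatment comparisons share the BYS rats with the contrast that chose the members, and with each other.

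BYP against BYA shares no rat with the contrast of BYS and BNS. BYP and BYA rats may still be among those with spasms on which the set was chosen. None of the 10 members passed, nor any of the 17086 genes (0%), and 3 members reached 0.05 unadjusted, beside 7.95% of all genes. Cdkn1a was higher in all 4 BYP rats than in all 4 BYA rats, by 0.69 (SE 0.31), or 1.61-fold (limma, adjusted p = 0.58). Of all genes, 2.67% lay higher in BYP without overlap. Without BYA replicate 3 the same probe differed by 0.56, still without overlap (5.83% of genes), and the second probe of Cdkn1a differed by -0.13. Nr3c2 differed by -0.77 (SE 0.32; limma, adjusted p = 0.55), with BYP replicate 3 farthest below. Tsc22d3 differed by -0.9997 (SE 0.46; limma, adjusted p = 0.61), and its first BYP array by 0.18. For Fkbp5 the difference was 0.36 with a 95% interval from -0.20 to 0.91, and without BYA replicate 3 it was -0.03. Under median scaling it was -0.08, where the median of all genes was -0.13.

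Other genes of the pathway were read from 4 lists that hold 78 genes in all. Among the chaperones and cofactors of the receptors, 19 of 20 passed the filter, and 1 passed the test in BNS against SNS: Hspa4, a heat shock protein, rose by 0.95 (SE 0.22; limma, adjusted p = 0.0077). Among genes of steroid supply and metabolism, 9 of 15 passed the filter, and Abcb1b, an efflux pump that carries glucocorticoids, rose by 0.74 (SE 0.18; limma, adjusted p = 0.0091). These were 1 of 19 and 1 of 9 genes, where 15.2% of all genes passed. None of the 15 relatives of the members passed in any comparison. Their smallest unadjusted p-values in BNS against SNS were those of Zbtb20 (-0.64), Per3 (-0.35) and Sgk3 (0.26). In the treatment comparisons no gene of these 3 lists passed. Bag1, a co-chaperone of the receptor, stood at 11.60 and 12.06 in the first BYP array and 8.69 and 9.25 in the second, a split between the same pairs as that of Tsc22d3, and at 11.41 to 12.07 in all other rats. Its difference was -1.28 (SE 0.49) in BYP against BYS and -1.11 (SE 0.47) against BYA (limma, adjusted p = 1.00 and 0.57). The heat shock genes Dnajb1, at -0.35 against BYS (limma, adjusted p = 1.00), and Hspa4, at 0.54 against BYA (limma, adjusted p = 0.54), did not pass either.

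Of 31 other glucocorticoid response genes, 29 passed the filter. In all, 3 of them rose in BNS against SNS: Sult1a1, a sulfotransferase, by 1.66 (SE 0.28; limma, adjusted p = 5.8e-04), Tiparp by 0.77 (SE 0.21; adjusted p = 0.021) and Rasd1, a small G protein first known as a dexamethasone-induced gene, by 0.62 (SE 0.16; adjusted p = 0.015). None fell, so 3 of 29 passed beside 15.2% of all genes. Sult1a1 was 9.23, 9.33, 9.32 and 9.29 in SNS and 10.73, 10.44, 11.40 and 11.24 in BNS, and it stayed above SNS in all 12 rats with spasms. No gene of the list passed in the treatment comparisons. The smallest unadjusted p-values of BYP against BYA were those of Angptl4, a regulator of lipid uptake (1.44, SE 0.45; limma, adjusted p = 0.37), and of the metallothioneins Mt1 (1.19, SE 0.38; adjusted p = 0.39) and Mt2A (1.31, SE 0.44; adjusted p = 0.42).

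The list is described against BNS in the rats with spasms, beside the shares of all genes that were higher, 50.3%, 49.5% and 50.9% for BYS, BYA and BYP. In BYS 21 of 29 genes were higher, with a median difference of 0.21, 4 lay above BNS without overlap (2.56% of all genes) and 1, Arrdc2, below it (3.87%). In BYA 22 were higher, with a median of 0.21, 1 lay above without overlap (4.64% of all genes) and Arrdc2 again below (4.01%). Without replicate 3 the BYA median was 0.35, 24 were higher and 10 lay above without overlap (8.51%). In BYP 24 were higher, with a median of 0.43, and 15 lay above without overlap (6.28%). This list too was chosen with earlier results of these rats known, and nothing is read from its counts. The genes furthest from BNS in BYP were Cebpd at 2.76, Mt2A at 2.06, Angptl4 at 1.99 and Cebpb at 1.93, of which Cebpd and Cebpb, a pair of transcription factors also active in inflammation, were picked after their values were seen. Klf9, a transcription factor that responds to glucocorticoids in the brain, was 11.67, 11.29, 11.68 and 11.16 in BYS, 12.05, 11.97, 11.80 and 12.06 in BYA, and 12.49, 12.36, 11.86 and 11.98 in BYP. Klf9 was picked from the 29 genes by its unadjusted p-values. Its difference from BYS was 0.52 in BYA (limma, adjusted p = 1.00) and 0.73 in BYP (limma, adjusted p = 0.96), and neither difference passed. Mt2A (1.21) and Txnip (0.45) came next in BYP against BYS by their unadjusted p-values and did not pass (limma, adjusted p = 1.00 for both).

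The response genes did not separate rats by condition alone. The mean log2 level of the 29 genes was 9.80 to 9.99 in SNS and 9.85 to 10.08 in BNS. It was 10.12 and 10.08 in the first BYS array and 10.52 and 10.56 in the second. BYA rats had 10.43, 10.17, 9.91 and 10.63, and BYP rats 10.71, 10.67, 10.71 and 10.45. In this mean BYA replicate 3, whose values may be those of the other rat, lay among the rats without spasms, and the first BYS array lay at their upper edge. At Cdkn1a, BYA replicate 3 had 11.21 and was above all SNS and BNS rats.

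Genes that neurons switch on within minutes of activity were high in many of the same rats. The mean log2 level of 13 immediate early genes was 9.41 to 9.75 over SNS and BNS. It was 9.71 and 9.57 in the first BYS array, 10.59 and 10.55 in the second, 10.68, 10.21, 9.64 and 10.99 in BYA, and 10.64, 10.44, 10.46 and 10.20 in BYP. Fos, picked from this list after its values were seen, was 8.86 and 9.16 in the first BYS array, 11.04 and 10.47 in the second, and 8.76 in BYA replicate 3, where the other BYA rats were at 10.47 to 11.03. Against BNS, 13 of 13 genes were higher in BYS and in BYA and 12 of 13 in BYP, with medians of 0.52, 0.77 and 0.71. The other 3 genes of the list of 16 (Fosl2, Egr3 and Npas4) did not pass the filter. NMDA was given on the day the tissue was taken, and the part of acute activity in the member values was not tested.

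Of 8 markers of astrocytes, which also express many of the response genes, 7 were higher than BNS in each spasm condition. Their medians were 0.27, 0.11 and 0.29 in BYS, BYA and BYP, and 50.3%, 49.5% and 50.9% of all genes were higher. In BYP 4 of 8 lay above BNS without overlap, beside 6.28% of genes, and none did in BYS or BYA. The mean log2 level of the 8 was 10.88 to 11.19 in BYP and 10.57 to 10.78 in BNS. It was 10.69 to 11.36 in BYS, 10.6998 to 10.95 in BYA and 10.64 to 10.98 in SNS, which overlapped BYP. Against SNS 5 of 8 were higher in BYP, with a median of 0.14. The mean of 8 endothelial markers was 10.32 to 10.47 in BYP and 10.35 to 10.58 in BNS. The part of astrocyte RNA in the member values was not tested.

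**Figure D4:**
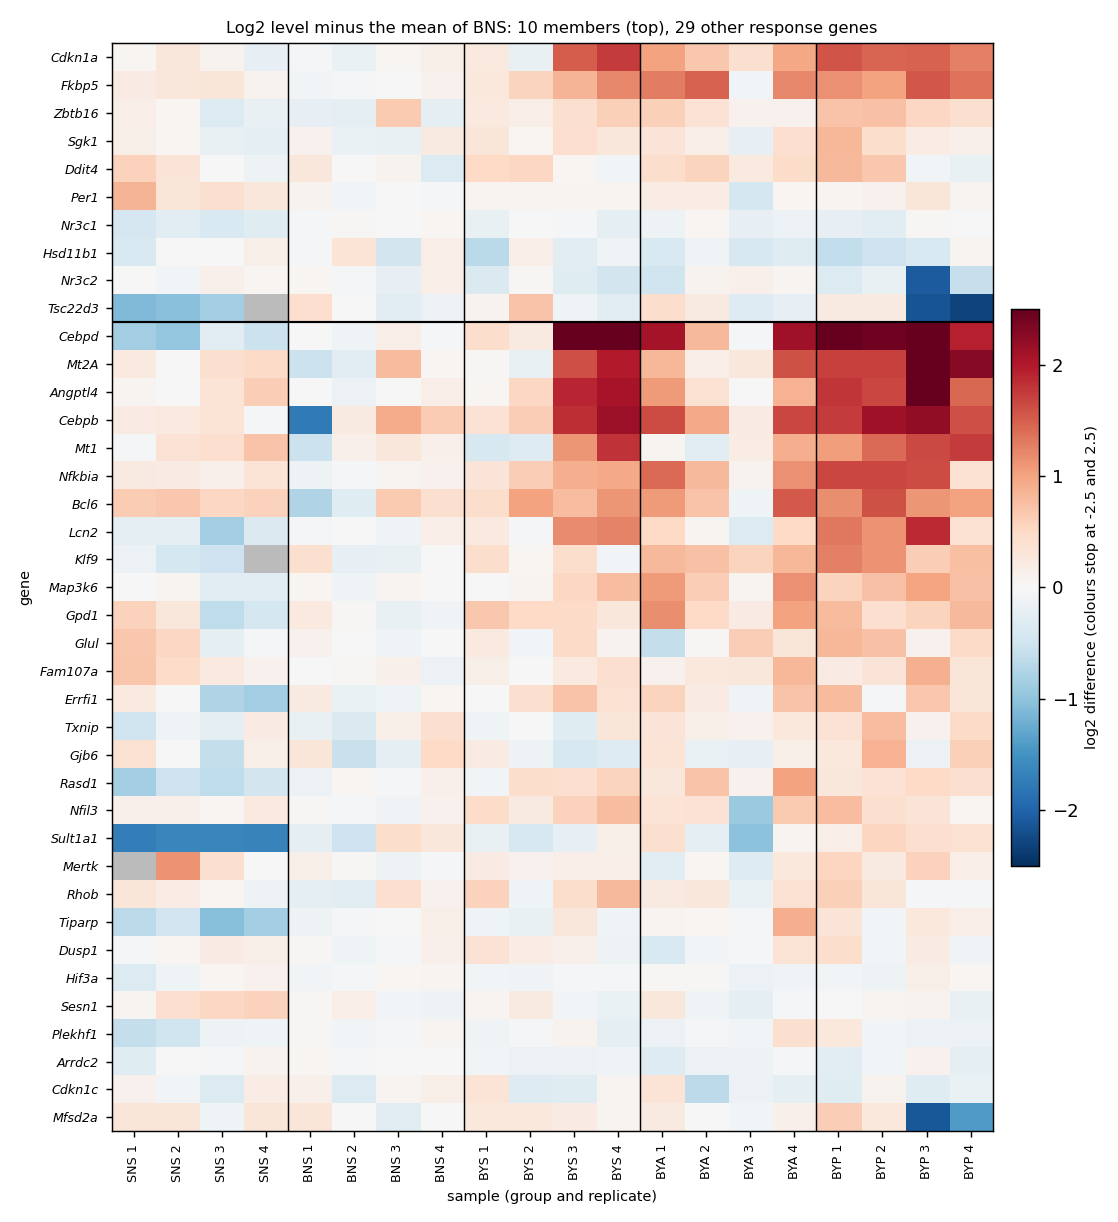
Log2 level of the 10 members (top) and 29 other response genes (rows) in each of the 20 rats (columns), minus the mean of BNS for that gene. Red is higher and blue lower than BNS, colours stop at the ends of the bar, and grey marks missing values; Cdkn1a, Fkbp5, Cebpd and Mt2A are red in BYS replicates 3 and 4 and in BYP, while BYS replicates 1 and 2 and BYA replicate 3 stay pale in Cdkn1a, Cebpd and Mt2A.

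The genes whose levels ran most like each member were found by Pearson correlation over the 20 rats. These correlations are a description, since rats of a condition share array and slide, and every gene shares the same hybridizations. Cdkn1a was most like Olr1 (r = 0.95), Ccl3 (0.94) and Ccl4 (0.93). Fkbp5 was most like Il1b (0.90), Map3k6 (0.90) and Csrnp1 (0.89). Ccl3, Ccl4 and Il1b encode the chemokines and the cytokine of that name, and Olr1 a scavenger receptor.

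Ccl3 also split the BYS rats by array. It was 7.43 to 7.81 over SNS and BNS, 7.79 and 7.91 in the first BYS array, and 12.04 and 12.08 in the second. Levels in BYA were 11.90, 10.97, 9.99 and 12.47, and in BYP 12.48, 12.69, 13.37 and 11.63. BYA replicate 3 was thus above all SNS and BNS rats at Ccl3. Fkbp5 and Cdkn1a themselves had r = 0.82 over all rats and 0.56 after the condition means were removed.

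The other members were like other genes. Nr3c1 was most like Uimc1, Med17 and Matr3 (r = 0.90, 0.90 and 0.89), and Nr3c2 was most like Chrm3, Smyd2 and Nrg1 (0.91, 0.91 and 0.89). Tsc22d3 was most like Cwc22, Timm8a1 and Gpr132 (0.88, 0.87 and 0.84 over 19 rats). Hsd11b1 was most like Cyrib, Inpp5f and Cyb561 (0.88, 0.87 and 0.86). For Per1 it was Atp13a5 and Map3k7cl (0.89 and 0.85) and a probe without a gene name. For Ddit4 it was Insyn1 and Ecm1 (0.85 and 0.81) and a transcript without a symbol, and for Zbtb16 a pair of probes without a name and Chd2 (0.80). Sgk1 was most like Adamts15, Zfp423 and Trib1 (0.81, 0.80 and 0.79).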

How the data were processed

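RNA of the hypothalamic arcuate nucleus of 20 female rats was hybridized to 2-colour Agilent arrays, 4 rats in each of 5 conditions taken from the labels. The authors deposited the scanner output of 11 arrays, in which spot intensities and local backgrounds are unprocessed (mean and median pixel brightness) and a further intensity column is, per the file headers, background-subtracted, detrended and dye-normalized. The labels name Feature Extraction 10.7.3.1 and the headers 11.5.1.1. Of the series-wide files, 82 columns that belong to rats of another series were not used.

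Intensities were corrected with normexp (offset 50), quantile normalized over the 20 channels and set on the log2 scale with limma 3.58.1 (R 4.3.3, statmod 1.5.0 and the data.table package, version 1.17.8). Control spots were left out, and outlier spots (1.18% of values) were set to missing. Spots of a probe were averaged. A probe was kept where it was well above background in all 4 rats of at least 1 condition, by at least 0.5 of its spots, which left 19883 of 30367 probes. A gene is the mean of its kept probes without missing values, or of all of them where each has some. Names are those of the array design, updated through RefSeq accessions for 18643 probes (61.4%). Signal over background and the number of arrays limit the precision. The limma model held the 5 conditions, the dye and the array as a random block (correlation 0.365), fitted to 17086 genes, and p-values were adjusted by the Benjamini-Hochberg method over all of them. It was tested on simulated data with known changes between BYP and BYA. It recovered 26.9% of the changes of 0.5 log2 units, 79.1% of those of 1 and 100% of those of 2, with 7 false calls. Most changes of 0.5 were thus missed. The simulated noise was normal, with the residual spread of each gene and the same array correlation (0.365) for all. Splits between the arrays of a condition, such as that of Tsc22d3 in BYP, were not simulated. The shares recovered therefore do not carry over to genes with such splits.

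The comparisons with a test were BNS against SNS and the 3 among BYS, BYA and BYP. The members and gene lists were chosen with earlier results of these data known, on contrasts of rats with and without spasms, which therefore carry no test. All members are given, with error and p where the unadjusted p was under 0.05. Genes of the wider lists are named where they passed, or else up to 3 per list and comparison with the smallest unadjusted p under 0.05 (1 gene that this rule selects is not reported here), and the 3 genes most correlated with each member are given. Alternatives were the array block, slide, replicate number, dye, the 8 samples compared alone, the methods' t-test (at 0.05, unadjusted and after Benjamini-Hochberg), the normalization, the processed intensities, the filter, the probe rule and leaving out each rat.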

Additional observations from a re-analysis of the deposited data

Results flagged for a closer look

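In 4 of 49 member and condition groups of 4 rats, 1 rat stood apart from the other 3 by Dixon's test, which flags about 1 in 20 groups by chance. Fkbp5 was at 10.96 in BYA replicate 3, the rat whose channel is uncertain, where the other BYA rats were at 12.23 to 12.49. Nr3c2 was at 8.54 in BYA replicate 1, below the others at 9.11 to 9.16. Per1 was at 7.99 in BYP replicate 3, above the others at 7.75 to 7.78, and Zbtb16 was at 8.47 in BNS replicate 3, above the others at 7.57 to 7.61.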

How the results depend on the processing

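In BNS against SNS, 1 member passed in the reported fit. The number was 2 without the array block, with loess and Aquantile normalization, with the brightest probe per gene (Nr3c1 and Cdkn1a), with each probe as a row of its own (chosen after seeing the data) and with the methods' t-test after Benjamini-Hochberg adjustment. It was 3 with the slide as a random block and 4 with the methods' t-test unadjusted. It was 0 with each channel scaled to its median, with the processed intensities and with only probes well above background in all samples, a setting that leaves Nr3c1 out. Leaving out 1 rat gave 0 to 2 members. The genes called, 2595 in the reported fit, were 4881 without the array block, 8157 with the slide block, 6068 with the unadjusted t-test, 1084 with the processed intensities and 15 under median scaling, which moved the median of all genes by -0.14. Nr3c1 was 0.46 higher there (adjusted p = 0.27) and 0.27 higher with the processed intensities (adjusted p = 0.67), and with the 8 rats alone Tsc22d3 passed in its place.

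Same-numbered rats did not deviate together (mean correlation 0.0031), so the numbers do not pair them. With the replicate number as a block, 1 member and 2837 genes passed in BNS against SNS, and no call of a member changed in the other comparisons.

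In BYP against BYA 0 members passed, and 1 (Cdkn1a) with the methods' t-test unadjusted. In BYA against BYS and in BYP against BYS the number was 0 under every alternative run. Cdkn1a turned to -0.13 in BYP against BYA with the brightest probe. Tsc22d3 turned to 0.12 against BYS and 0.18 against BYA with BYP replicates 1 and 2 alone, a comparison chosen after seeing the data. Genes called in BYA against BYS, BYP against BYS and BYP against BYA were 123, 422 and 1024 with the slide block, against 0, 1 and 0 as reported. The slide block had a correlation of -0.128. Since slide and condition nearly coincide, that fit cannot separate them, and nothing is read from its counts in any comparison. The cause of the changes under the other settings was not tested.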
